A study of Saccharomyces cerevisiae with 4 samples.

Results

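The 10 genes described here encode proteins of the eisosome and of the plasma membrane domain above it in budding yeast, plus the plasma membrane protein Pns1. They were chosen by name from the 6207 gene rows of the series, with earlier results of these data known. The members are NCE102 (YPR149W), FHN1 (YGR131W), SUR7 (YML052W), FMP45 (YDL222C), PUN1 (YLR414C), PIL1 (YGR086C), LSP1 (YPL004C), SEG1 (YMR086W), EIS1 (YMR031C) and PNS1 (YOR161C). All 10 had a value on every array, and all 10 identifiers carried these symbols in the RefSeq gene table of assembly R64.

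Eisosomes are protein coats on the inner face of the yeast plasma membrane that bend it into short furrows. The BAR-domain proteins Pil1 and Lsp1 form the coat, Seg1 and Eis1 take part in its assembly and stability, and tetraspan proteins of the Nce102 and Sur7 families sit in the furrow membrane. That domain, called MCC after the arginine permease Can1, also gathers several nutrient permeases, and it is linked to sphingolipid sensing through the Pkh kinases and the TOR complex of the plasma membrane.

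The series compared yeast lacking LOC1, which encodes a nuclear RNA-binding protein of ribosome assembly and ASH1 mRNA localization, with wild type. The knockout strain was PSY3262 and the wild-type strain PSY3259; the sources used here do not give their further alleles. Cultures of 50 mL in YPD, a rich medium, were grown at 30 °C and collected in early log phase at an optical density of 0.2 to 0.4. Each of 4 arrays of 2 colours compared RNA of 1 knockout culture with RNA of 1 wild-type culture, and the labels call the arrays biological replicates. The knockout was labelled with Cy5 on arrays 1 and 4 and with Cy3 on arrays 2 and 3. On array 4 the strain tag names PSY3262 for both channels, while the description of the second channel names wild type, which was followed.

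The measurement is the deposited log ratio of the channels, in log units whose base the sources used here do not state. Folds are stated "if base 10", the base that the limit of the values at a size of 2 points to. Each array was turned so that LOC1 lay below 0, which placed LOC1 at -1.20, -0.972, -1.07 and -1.31 on arrays 1 to 4. By its mean over the 4 arrays, LOC1 ranked 1 from the bottom of 6205 genes (13.7-fold lower if base 10). This turn does not follow the dye labels. Arrays 1 and 4, of 1 labelled orientation, correlated at r = -0.773 as deposited, and arrays 2 and 3, of the other, at r = -0.712 (each r is over 6178 genes of the same arrays and describes them only). The labels thus leave the direction unsettled, and it was taken from LOC1, the gene that the knockout lacks. "Higher" below means higher in the knockout in the direction that places LOC1 lower, and under the opposite sign rises become falls and ranks from the top become ranks from the bottom. Because the members were chosen on this same contrast, their values are a description and were not tested.

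Of the 10 members, 5 lay above 0 on every array (PNS1, NCE102, LSP1, PUN1 and PIL1), 2 lay below 0 on every array (SEG1 and EIS1), and SUR7, FMP45 and FHN1 had both signs. Over all 6205 genes tested, 28.5% lay above 0 on every measured array and 28% below, 56.6% in all, against 7 of the 10 members; the choice of members used these values, so nothing is read from that. With the sign turned, the counts are 2 above and 5 below. The member means ran from -0.150 to 0.522, with a median of 0.0556 against 0.00190 over all genes. Their median size was 0.118 log units against 0.0679 over all genes, and their median SD between arrays was 0.0448 against 0.0505. The median over the members was 0.0846, 0.109, 0.0634 and 0.0462 on arrays 1 to 4. Without array 4, whose strain tag is at odds with its description, 7 members lay above 0 on every array and 2 below.

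**Figure D1:**
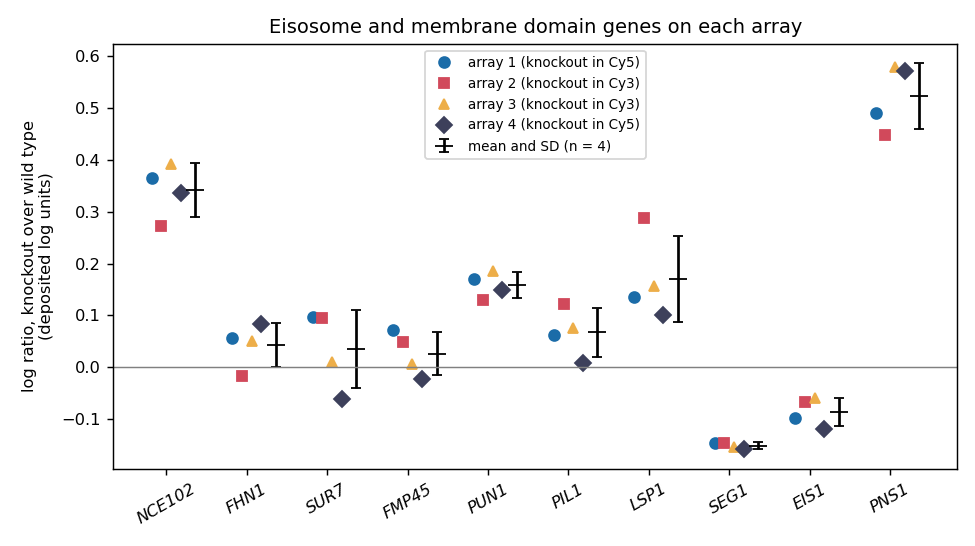
Log ratio of knockout over wild type, in deposited log units, for each member on each of the 4 arrays, with the mean and SD (n = 4) in black beside the points. PNS1 and NCE102 lie well above 0 on all 4 arrays, SEG1 and EIS1 lie below 0 on all 4, and the points of SUR7, FMP45 and FHN1 straddle 0.

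Among the tetraspan proteins of the furrow, NCE102 stood apart from its close relative FHN1. Nce102 is needed for normal eisosome formation and takes part in sphingolipid sensing. NCE102 had 0.364, 0.272, 0.392 and 0.336 on arrays 1 to 4. Its mean was 0.341 ± 0.0515 (SD, n = 4), or 2.19-fold if base 10 and 1.27-fold if base 2, which ranked 41 from the top of 6205 genes (41 from the bottom with the sign turned). FHN1, the paralog, had 0.0567, -0.0171, 0.0512 and 0.0835, with a mean of 0.0436 ± 0.0428. The arrays thus agreed on the side of NCE102 and not on that of FHN1, where array 2 was below 0. Within each array NCE102 lay above FHN1, by 0.253 to 0.341 log units and by 0.298 ± 0.0369 on average.

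The Sur7 family members, also proteins with 4 membrane spans, also differed among themselves. SUR7, which encodes a long-used marker of the domain, had 0.0980, 0.0947, 0.00986 and -0.0604 on arrays 1 to 4. FMP45, a relative needed for sporulation, had 0.0712, 0.0481, 0.00647 and -0.0215. In both genes arrays 1 and 2 were higher than arrays 3 and 4, array 3 was near 0 and array 4 was below 0. Their means, 0.0355 ± 0.0758 and 0.0260 ± 0.0415 (SD, n = 4), were smaller than their SDs. The mean of SUR7 was 0.0675 without array 4, 0.0147 without array 1 and 0.0158 without array 2. That of FMP45 was 0.0419 without array 4 and 0.0110 without array 1. On arrays 3 and 4 alone both means changed sign, to -0.0253 for SUR7 and -0.00752 for FMP45. For SUR7 the mean of arrays 1 and 2 exceeded that of arrays 3 and 4 by 0.122, a gap wider than in 89.0% of all genes.

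PUN1, which encodes a further protein of these patches with a part in cell wall integrity, had 0.169, 0.130, 0.186 and 0.149. All 4 values were above every value of SUR7 and FMP45. Its mean was 0.159 ± 0.0244 (SD, n = 4), 1.44-fold if base 10 and rank 464 from the top (from the bottom with the sign turned). PUN1 exceeded SUR7 within every array by 0.0354 to 0.209 and FMP45 by 0.0820 to 0.180. YNL194C, a further relative of SUR7 that is no member, had 0.161, 0.0628, 0.0323 and 0.0342, with a mean of 0.0727 ± 0.0608 that did not pass limma's threshold (adjusted p = 0.0669).

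The coat genes PIL1 and LSP1 both lay above 0 on every array, with LSP1 the higher on each. Pil1 is the main organizer of the coat, and Lsp1 is its close homolog. PIL1 had 0.0629, 0.123, 0.0756 and 0.00889, and LSP1 had 0.136, 0.288, 0.156 and 0.1003. Array 2 was the highest and array 4 the lowest for both. The means were 0.0676 ± 0.0469 and 0.170 ± 0.0819 (SD, n = 4), or 1.17-fold and 1.48-fold if base 10, and LSP1 exceeded PIL1 by 0.103 ± 0.0424 within arrays. LSP1 ranked 385 from the top and PIL1 1614 (from the bottom with the sign turned). The arrays labelled with the knockout in Cy3 had the higher means, at 0.222 against 0.118 for LSP1 and 0.0992 against 0.0359 for PIL1. These means include array 2, the highest, and array 4, the lowest. Between the remaining array of each label the gap was smaller, at 0.156 against 0.136 for LSP1 and 0.0756 against 0.0629 for PIL1. The turn does not follow the dye labels, and the part of the dye in these values was not tested. The probe sequences were not used here, so shared signal between these homologs was not tested.

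The assembly genes SEG1 and EIS1 ran the other way. Seg1 marks and stabilizes the sites where the coat forms, and Eis1 is needed for normal coat assembly. SEG1 had -0.145, -0.146, -0.152 and -0.158, the tightest values of any member. Its mean was -0.150 ± 0.00593 (SD, n = 4), 1.41-fold lower if base 10, and only 0.226% of genes had a smaller SD. EIS1 had -0.0977, -0.0669, -0.0589 and -0.119, with a mean of -0.0855 ± 0.0277, 1.22-fold lower if base 10. All values of both genes lay below every value of the other 8 members except the array 4 value of SUR7, which was below the highest value of EIS1. From the bottom SEG1 ranked 492 and EIS1 1209 of 6205 (from the top with the sign turned). SEG2, the relative of SEG1, had -0.105, -0.149, 0.0186 and -0.0729, with a mean of -0.0772 ± 0.0711 that did not pass (limma adjusted p = 0.0703). Without replicate 3 it was -0.109 and passed (adjusted p = 0.0324).

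**Figure D2:**
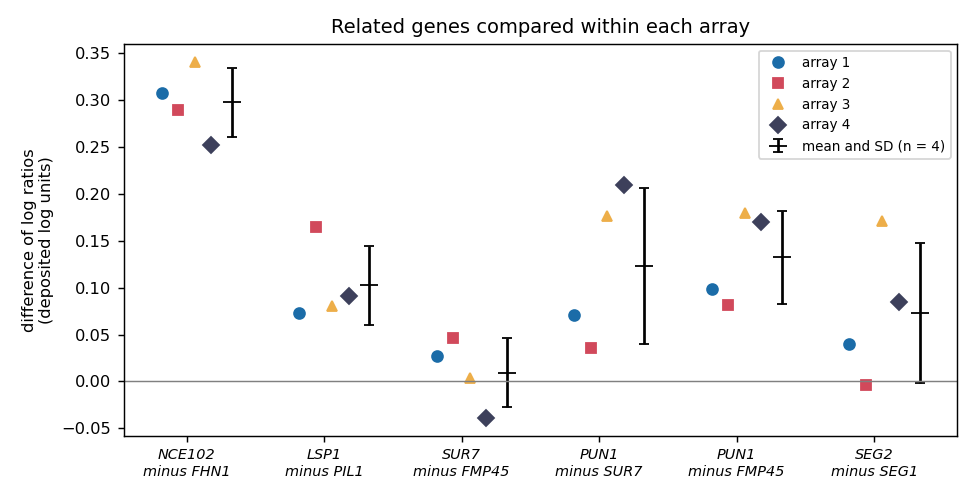
Difference of the log ratios of 2 related genes within each array, in deposited log units, with the mean and SD (n = 4) in black. NCE102 exceeded FHN1 by 0.253 to 0.341 on the 4 arrays and LSP1 exceeded PIL1 by 0.0735 to 0.165, whereas SUR7 and FMP45 differed by -0.0389 to 0.0466.

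PNS1 had the largest mean of the members. It encodes a plasma membrane protein of the choline transporter-like family whose substrate in yeast is not known, and it is not counted here among the coat or furrow proteins. PNS1 had 0.490, 0.448, 0.579 and 0.570 on arrays 1 to 4, with a mean of 0.522 ± 0.0635 (SD, n = 4) or 3.33-fold if base 10 and 1.44-fold if base 2. It ranked 9 from the top over all arrays (9 from the bottom with the sign turned), and 25, 23, 8 and 11 on arrays 1 to 4. Ranks of means also count genes raised by 1 value at the limit of 2. SWD1, named after its values were seen, ranked 6 with 2 on array 1 and 0.00639 to 0.104 on the others. For PNS1, arrays 3 and 4 were higher than arrays 1 and 2 by 0.106 on average, the reverse of SUR7. The median of the other 9 members was 0.0436. By root mean square difference over the 4 arrays, the genes with the values most like those of PNS1 among 6191 were GCV1 (0.0606), RTC3 (0.0939), MMF1 (0.108), YFL013W-A (0.111) and CWP1 (0.117). The nearest other member, NCE102, was at 0.185.

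**Figure D3:**
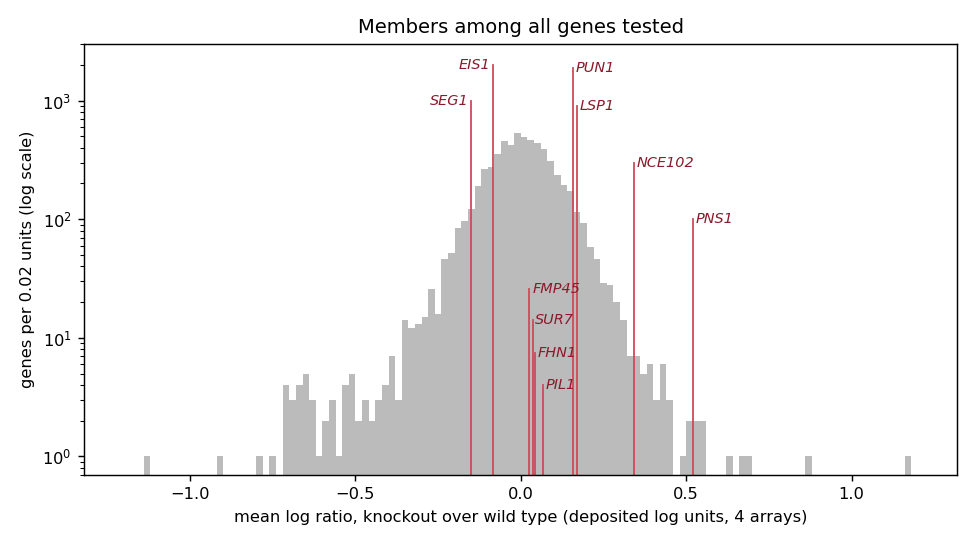
Histogram of the mean log ratio over the 4 arrays for the 6205 genes tested (deposited log units, genes per bin on a log scale), with a red line at each member's mean. PNS1 at 0.522 and NCE102 at 0.341 lie in the upper tail, SEG1 at -0.150 lies on the lower flank, and FMP45, SUR7, FHN1 and PIL1 lie in the bulk.

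The members differ in length, and log ratios over all genes moved with gene length. SEG1 and EIS1 are the longest members, at 2883 and 2532 bp in the RefSeq table, and NCE102 and FHN1 the shortest, at 522 and 525 bp. Over 5652 genes with a length, mean log ratio and length had Spearman's rho = -0.417, and rho was -0.302, -0.431, -0.342 and -0.412 on arrays 1 to 4 (across genes that share the arrays, a description). The median log ratio was 0.0592 for 882 genes under 600 bp, 0.0337 for 1833 genes from 600 bp, -0.0217 for 2062 genes from 1200 bp and -0.0558 for 875 genes of 2400 bp or more. SEG1 was below 84.5% and EIS1 below 65.1% of the genes in their class. NCE102 was above 98.8% of its class, PNS1 above 99.8%, LSP1 above 91.7% and PUN1 above 89.3%. FHN1, SUR7 and FMP45 lay close to their class medians, at differences of -0.0157, 0.00180 and -0.00767. The part of length in the members' values was not tested.

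**Figure D4:**
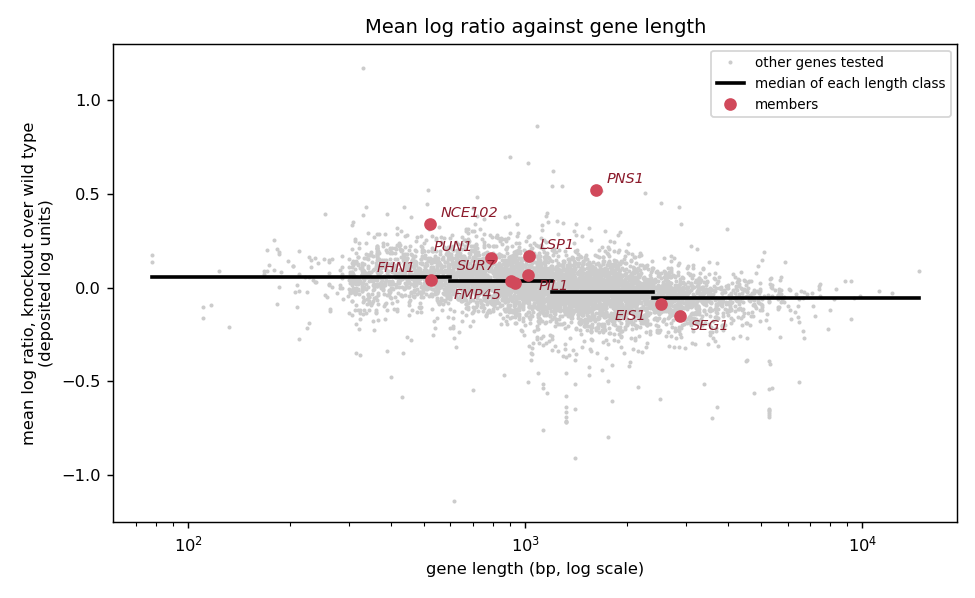
Mean log ratio over the 4 arrays (deposited log units) against gene length in bp (log scale), with members in red, other genes in grey and the median of each of 4 length classes as a black line. The class medians step down from 0.0592 to -0.0558, and PNS1, NCE102, LSP1 and PUN1 stand above the line of their class while SEG1 stands below.

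Other genes of these domains were read from 4 lists, tested in limma over all 6205 genes with Benjamini-Hochberg adjustment at 0.05. The lists were written with earlier results of these data known, so their counts are a description. Over all genes 44.2% passed, 22.5% higher and 21.7% lower. Of 16 other eisosome and MCC genes, 5 fell and 1 rose, with a list median of -0.0196. MSC3, which encodes a protein of the cell periphery, fell most, at -0.210 ± 0.0502 (SD, n = 4, adjusted p = 0.00072). MDG1 fell at -0.173, the exonuclease gene XRN1 at -0.135 and the methionine permease gene MUP1 at -0.111. The tryptophan permease gene TAT2 (-0.0959) and, in the other direction, the uracil permease gene FUR4 (0.0787) also passed, and both are named only because they passed. TAT2 lost its call without replicate 4 (-0.0862, adjusted p = 0.0504) and FUR4 whichever replicate was left out (0.06996 to 0.0898). CAN1, the permease that gives the domain its name, was at 0.0312 and did not pass.

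Kinase and lipid enzyme genes linked to eisosomes were called about as often as all genes were (44.2%). Of 22 genes for the Pkh and Ypk kinases, the Slm proteins, the TOR complex of the plasma membrane and phosphoinositide turnover, 3 rose, 5 fell and 14 did not pass (median 0.0116). The largest changes were the falls of the phosphoinositide phosphatase genes INP53 (-0.164 ± 0.0143, SD, n = 4, limma adjusted p = 0.000876) and INP51 (-0.124) and of the kinase gene YPK1 (-0.126), and the rise of SFK1 (0.106), which acts with a phosphatidylinositol kinase. INP52 (-0.0747) and EFR3 (-0.106) also fell and BIT2 (0.0972) and YPP1 (0.0877) rose; these were named after their values were seen, and all 4 lost their call without at least 1 replicate. Without replicate 1, 3 or 4 the list had 3 falls, and without replicate 3 or 4 it had 1 rise. Of 24 measured genes of sphingolipid synthesis and turnover, 5 rose, 6 fell and 13 did not pass (median 0.00713). SCS7, the ceramide fatty acid hydroxylase, rose by 0.244 ± 0.0244 (adjusted p = 0.000187), LIP1, a ceramide synthase subunit, by 0.203 and the ceramidase gene YPC1 by 0.200. LCB2, a subunit of the first enzyme of the pathway, fell to -0.207 ± 0.0428 (adjusted p = 0.000624). The other falls, named after their values were seen, were those of LAG1, a catalytic subunit of ceramide synthase (-0.173, adjusted p = 0.0016), the ceramidase gene YDC1 (-0.119), and LCB5 (-0.0878), LCB3 (-0.0864) and DPL1 (-0.0694), which act on sphingoid bases or their phosphates. The last 3 lost their call without at least 1 replicate, while LCB2, LAG1 and YDC1 kept theirs whichever was left out. The further rises, LAC1 (0.0922) and ORM2 (0.102), encode the other catalytic subunit of ceramide synthase and a regulator of the pathway's first enzyme. They had been seen before they were named. LAC1 lost its call without replicate 1 (limma adjusted p = 0.0753), and both lost theirs without replicate 3. That left 3 rises without replicate 3, and 3 falls without replicate 4.

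In the proton pump domain and at the tethers, 8 genes were lower and 3 had means above 0. Of 11 measured genes for the proton pump Pma1 and its partners and for the tethers that hold cortical endoplasmic reticulum to the plasma membrane, 8 fell and 1 rose, with a median of -0.196, against 21.7% lower and 22.5% higher over all genes. This list too was written with earlier results of these data known, so nothing is read from that difference. The 8 falls all held when any 1 array was left out, and 7 held with a robust variance estimate and 5 on arrays 1 and 2 alone. Among the tethers, TCB2 had -0.201, -0.346, -0.208 and -0.260 (mean -0.254 ± 0.0669, SD, n = 4, limma adjusted p = 0.000529), IST2 a mean of -0.225 and TCB1 one of -0.207. PMA1, the proton pump that occupies the membrane between furrows, had -0.136, -0.138, -0.135 and -0.146. PMA2 (-0.132), TCB3 (-0.196) and HSP30 (-0.198) fell as well. PMA1 and these genes were named after their values were seen. Shared signal between related genes of this list, such as PMA1 and PMA2 or the TCB genes, was not tested. PMP2, a small proteolipid of the pump, had -0.481 on array 1 against -0.137 to -0.0998 on the others, and its mean of -0.207 became -0.116 without array 1. SCS2, the tether gene that rose (0.0843, named after its value was seen), lost its call without replicate 1, 2 or 4. The pump proteolipid gene PMP1 and PMP3, which encodes a small membrane protein, had means of 0.0898 and 0.0719 and did not pass on all 4 arrays (adjusted p = 0.0594 and 0.291); they too were named after their values were seen. Both were below 0 on array 1 (-0.0351 and -0.152) and above 0 on the others, at 0.113 to 0.154 for PMP1 and 0.0968 to 0.207 for PMP3. Without replicate 1 they passed as higher, at 0.131 (adjusted p = 0.0123) and 0.146 (adjusted p = 0.0156). Of the 8 that fell, 6 are 2400 bp or longer, as are 6 of all 11 measured genes of the list. Among all genes with a length, 875 of 5652 are that long, and 345 of the 1228 lower ones. The part of length was not tested. With the sign turned, all rises and falls in the 4 lists exchange.

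**Figure D5:**
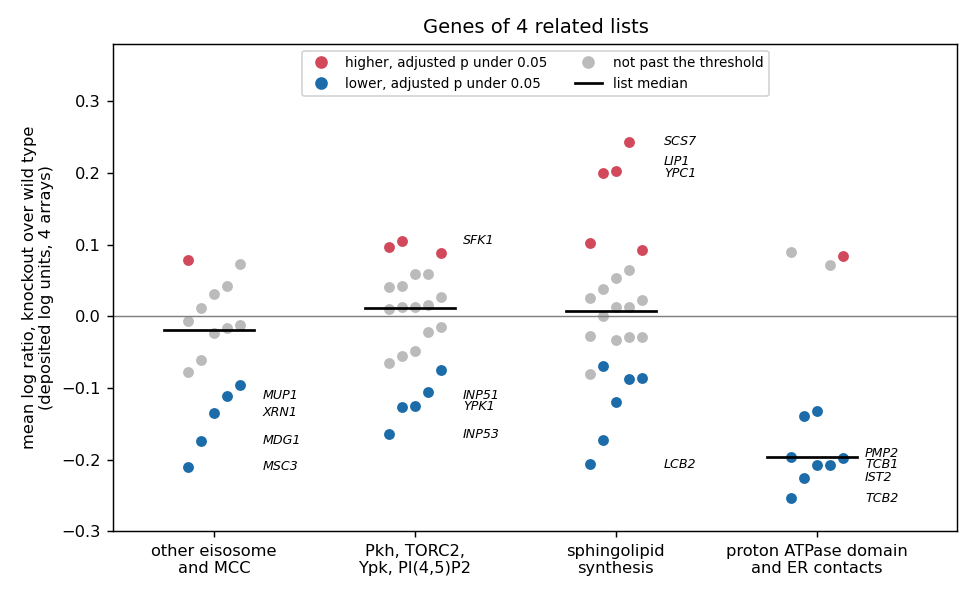
Mean log ratio over the 4 arrays (deposited log units) of each measured gene in 4 related lists, in red where higher and in blue where lower with limma adjusted p under 0.05, in grey otherwise, and with the list median as a black line. The medians of the first 3 lists lie between -0.0196 and 0.0116, and that of the proton pump and tether list lies at -0.196.

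The genes beside the members on the chromosomes, in the order of the RefSeq table, were read for comparison. Of 20 such neighbours 19 were measured, of which 3 rose and 7 fell in limma, against 22.5% higher and 21.7% lower over all genes, with a median of -0.0163. The 10 that passed were named after their values were seen, and 5 of them had the sign of their member and 5 the opposite one. Those with the member's sign were SUE1 beside NCE102 (0.244 ± 0.0940, SD, n = 4, adjusted p = 0.00136), RPL11B beside PIL1 (0.109), HBT1 beside FMP45 (0.123), and RSF1 (-0.257) and HOF1 (-0.0943) beside EIS1. Those with the opposite sign were PHB1 beside FHN1 (-0.113), CDC13 beside FMP45 (-0.0988), AEP3 beside LSP1 (-0.0910), YLR415C beside PUN1 (-0.0876) and MTR10 beside PNS1 (-0.0614, adjusted p = 0.0477). HOF1, AEP3, YLR415C and MTR10 lost their call without at least 1 replicate. Both neighbours of SEG1 were measured, at 0.00230 and -0.0224, and neither passed.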

How the data were processed

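The values are the authors' deposited log ratios, taken as log10 from the values alone: 22 end exactly at a size of 2, and the largest below that is 1.41. Per the labels' protocols, reverse transcription from a poly-T primer was followed by Cy5 or Cy3 labelling. The sources used here do not give the scanner, background correction, normalization, log base or direction, and signal over background is unknown, so the number of arrays limits the precision. Rows of 3 controls were left out. Columns were not centred further (medians -0.0107 to 0.0119). Genes with a value on at least 3 of 4 arrays were tested in limma 3.58.1 (R 4.3.3) for a mean other than 0, with a two-sided p adjusted by Benjamini-Hochberg, after the procedure was tested on simulated data. Symbols came from RefSeq R64 (5654 of 6207 identifiers matched). Members and lists were chosen with earlier results of these data known. Named genes are the members, their relatives YNL194C and SEG2, up to 4 genes with the largest changes past the threshold per list, and the 5 genes nearest to the member with the largest mean; others are said to have been named after their values were seen. Alternatives were centring, scaling, complete genes, the value limit, a robust variance, a dye term, pairs of arrays, each array left out, and the turn by dye labels. No sequences were printed, since none were among the files used here.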

Additional observations from a re-analysis of the deposited data

Results flagged for a closer look

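PMP2, the proteolipid gene of the proton pump, had -0.481 on array 1, against -0.137 to -0.0998 on the other 3 arrays. The gap to the nearest of the others took up 0.902 of the whole range, above Dixon's critical value for 4 samples. CDC13, the gene beside FMP45, had -0.126 on array 3 against -0.0928 to -0.0880 on the others, a gap of 0.875 of the range. They were 2 of 64 genes examined in this way, and chance marks about 1 in 20. None of the 10 members was marked.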

How the results depend on the processing

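The direction is not settled by the labels and rests on LOC1, the gene that the knockout lacks. The opposite sign would place LOC1 higher in the knockout, and would otherwise only exchange higher and lower. Turning by the dye labels cancels signal by construction, since arrays of 1 labelled orientation correlate below 0: limma then called 1 gene higher and 0 lower over all genes (72 with an unadjusted p under 0.05), the median of the member means was 0.00401, and 0 members lay above and 0 below 0 on every array. On arrays 1 and 2 alone that median was 0.0946, and calls over all genes fell from 1398 higher and 1345 lower to 631 and 554. There the lists had 0 higher and 2 lower (other eisosome and MCC), 0 and 1 (kinases and phosphoinositides), 3 and 3 (sphingolipids) and 0 and 5 (proton pump and tethers). On arrays 3 and 4 alone, the other eisosome and MCC list had 0 higher and the proton pump and tether list 2, which also had 2 with the robust variance. With 1 replicate left out, calls over all genes ran from 1006 to 1297 higher and from 977 to 1301 lower. In the same order of lists, the higher calls ran from 0 to 0, 1 to 4, 3 to 5 and 0 to 2, and the lower calls from 4 to 6, 3 to 4, 3 to 5 and 8 to 8. The member means moved by less than their SD in all 100 recomputed values. This says little, since leaving out 1 or 2 of 4 arrays cannot move a mean by a full SD. The dye term could not move the member means, since each label had 2 arrays. Nor could the value limit, since no member value came near 2 (the highest was 0.579, PNS1 on array 3). SUR7 (-0.0253) and FMP45 (-0.00752) changed sign on arrays 3 and 4 alone. Of 636 values of the other named genes 85 lost and 6 gained a call, and 1 changed direction: PMP3, at -0.0273 on arrays 1 and 2 alone. PMP2 lost its call with the robust variance (adjusted p = 0.0753). No further pairing was made, since the log ratio of each array is already the comparison of a knockout with a wild-type culture. There is 1 group of arrays.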

Other observations

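The 3 control rows were not used above, and the sources used here do not say what they hold. After the same turn, the row named Arab had -0.259, -0.295, -0.0578 and -0.148 on arrays 1 to 4 and the row named Umat 0.124, 0.0438, 0.0882 and 0.132. Each kept 1 sign on all 4 arrays, with sizes in the range of the members' values. The row named 3X SSC lay between -0.0483 and 0.0101.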
